A study of Mus musculus with 15 samples.

Results

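The intergenic regions common to liver, spleen and thymus are stretches of the mouse genome that the authors listed for p53 chromatin immunoprecipitation sequencing (ChIP-seq) in all 3 organs and that lie away from annotated genes. ChIP-seq sequences the DNA fragments that come down with a protein when an antibody captures it. A region was taken when its start and end were identical in the 3 lists, its midpoint lay outside every RefSeq gene of GRCm38, and that midpoint was more than 1 kb from both ends of every gene. The regions were thus chosen by the authors' calls in the 3 lists and by position, so presence in the lists and distance from genes are not findings. Of 4137 distinct regions in the series, 783 met this rule, or 783 of the 1930 regions present in all 3 lists. The other common regions divided into 781 inside a gene and 366 at a gene end, and a further 220 intergenic regions were in only 1 or 2 lists.

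All 15 libraries came from wild-type mice, with 5 per organ. Each organ had 2 libraries taken 3 h after 2 Gy of X-rays, 2 from untreated mice and 1 of input, the chromatin before any antibody was added. The labels give no antibody, strain, sex or age. Each organ has 1 list, which the labels attach to its irradiated, untreated and input libraries alike, and the list names refer to irradiation and to IgG. With 1 list per organ there were no replicates, the read depth was unknown, and neither the effect of X-rays nor the spread between mice could be measured. The lists hold regions and no expression values, so the labelled organs could not be checked against marker genes.

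The p53 protein is a tetrameric transcription factor that accumulates after DNA damage and binds a pair of short, nearly palindromic decamers. Many of its classical sites lie in promoters or first introns of genes for cell cycle arrest, apoptosis and feedback on p53 itself. Others lie far from any promoter, where p53 is known to bind enhancers and, in human cells, copies of endogenous retroviruses. A site between genes can act on a gene other than the nearest, so the nearest coding gene is used here as a landmark and not as an assigned target. The spleen and thymus are lymphoid organs, while the liver is made mostly of hepatocytes.

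Regions of this kind made up a larger fraction of the lymphoid lists than of the liver list. Intergenic regions, shared or not, were 908 of 3872 in the liver list (23.5%), 924 of 2604 in spleen (35.5%) and 879 of 2405 in thymus (36.6%). The 783 common ones were 86.2% of the intergenic regions of liver, 84.7% of those of spleen and 89.1% of those of thymus. Presence in all 3 lists chose these regions, so the shares describe the rule and no test was made.

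Distances to coding genes spanned 3 orders of magnitude. Measured from the midpoint, the median distance to the nearest protein-coding gene was 22209 bp, with quartiles of 8532 and 78659 bp and a range of 1006 to 1536604 bp. The order-statistic 95% interval of that median was 19416 to 24968 bp. It covers counting error only. In all, 123 regions (15.7%) lay 1 to 5 kb from a coding gene, 107 (13.7%) at 5 to 10 kb, 300 (38.3%) at 10 to 50 kb, 91 (11.6%) at 50 to 100 kb, 135 (17.2%) at 100 to 500 kb and 27 (3.45%) farther than 500 kb. The 220 intergenic regions of 1 or 2 lists had a median of 24672 bp and quartiles of 8895 and 77726 bp. The intervals between quartiles of the shared and unshared intergenic regions thus covered nearly the same distances.

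Gene deserts, taken here as positions over 50 kb from every coding gene, held 253 of the 783 regions (32.3%, exact Clopper-Pearson 95% interval 29.0 to 35.7). Among intergenic regions of 1 or 2 lists the desert share was 73 of 220 (33.2%, 27.0 to 39.8). The intervals overlap. By the same measure 16.8% of all 1930 common regions lay over 50 kb from a coding gene, a value that includes regions inside noncoding genes. Much of the intergenic genome is desert. Between the first and last gene of each chromosome, 1393 Mb lay outside genes by the same rule, and 63.3% of it was over 50 kb from a coding gene. Desert sequence therefore carried 0.287 regions per Mb and the remaining intergenic sequence 1.04 per Mb. On the autosomes alone these densities were 0.332 and 1.14 per Mb. The density stepped down with distance, at 1.26 regions per Mb 1 to 5 kb from a coding gene, 1.21 at 5 to 10 kb, 0.924 at 10 to 50 kb, 0.498 at 50 to 100 kb, 0.282 at 100 to 500 kb and 0.122 beyond 500 kb. These densities are counts over length, without correction for assembly gaps or for sequence that reads cannot be placed in, and no test was made on them.

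**Figure D1:**
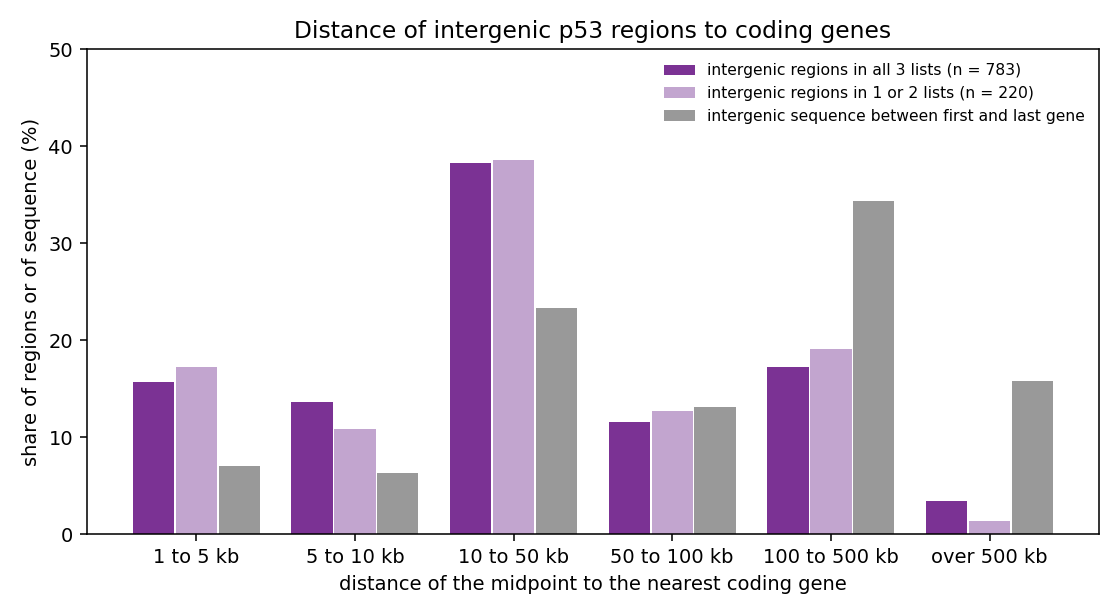
Share of regions or of sequence (percent) by distance to the nearest coding gene, for the 783 intergenic regions in all 3 lists, the 220 in 1 or 2 lists, and the intergenic sequence between the first and last gene of each chromosome. Both sets of regions peak at 10 to 50 kb (38.3% and 38.6%), whereas 34.3% of the sequence lies at 100 to 500 kb.

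Most desert regions had a noncoding gene or a pseudogene within 50 kb. The nearest gene of any kind was protein-coding for 341 of the 783 regions (43.6%), a long noncoding RNA for 225 (28.7%), a pseudogene for 165 (21.1%) and a small nuclear RNA for 18. Counting every gene, the median distance was 11601 bp, and 95 regions (12.1%) were over 50 kb from all of them. All 95 were among the 253 desert regions. Of these 253, the nearest gene was not protein-coding in 238 (94.1%), a share that follows largely from the desert limit. The median distance of desert regions to the nearest gene of any kind was 34180 bp. Many of these noncoding genes are predicted models, so the annotation decides what counts as intergenic. Of its 49943 genes, 21887 are coding. How much desert sequence lies within 50 kb of a noncoding gene was not counted, so the shares above are descriptions.

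The 8 regions farthest from coding genes sat in gaps of 2989230 to 3929106 bp between coding genes. The most remote, at chr2:100024101-100024250 (mm10, as are all coordinates below), lay 1536604 bp from Iftap in the gap of 3929106 bp that separates Lrrc4c, a synaptic adhesion gene, from Iftap. Its score percentiles, the rank of a region among all scores of its organ's list, were 43.1 for liver, 22.2 for spleen and 45.2 for thymus. Below, where 3 percentiles stand together without names, they are in the order liver, spleen, thymus. Next came a region 1377180 bp from the potassium channel gene Kcnt2 (chr1:141991201-141991250; percentiles 36.5, 37.3 and 54.2), which was also 463815 bp from any annotated gene, the longest such distance in the set. Regions 1263466 bp from Pcdh18 and 1162739 bp from Pcdh7, both protocadherin genes, ranked at 52.0 and 41.2 in liver, 25.3 and 33.8 in spleen, and 22.3 and 43.3 in thymus. All 4 of these were no wider than 150 bp and near the middle of the rankings or below it.

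A single gap on chromosome 17, between the hydrolase gene Nudt12 and the ephrin gene Efna5, held a pair of more highly ranked remote regions. The region at chr17:60135801-60136050, 1122558 bp from Nudt12, ranked at 82.8 for liver, 74.9 for spleen and 80.5 for thymus. The region at chr17:61474301-61474550, 1128532 bp from Efna5 and 3283 bp from a noncoding gene, ranked at 97.9 for liver, 79.9 for spleen and 27.2 for thymus. The last of the 8 were a region 1073530 bp from the ubiquitin ligase gene Hace1 (83.0 in liver, 63.1 in spleen, 58.9 in thymus) and one 988976 bp from the glypican gene Gpc5 (49.6, 20.4 and 4.93). In all, 27 regions lay more than 500 kb from a coding gene and 7 more than 1 Mb.

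Desert regions were narrower, and their median percentiles were lower. Over 50 kb from coding genes the median width was 150 bp, against 250 bp for the 530 regions nearer to a coding gene. In desert regions the median percentiles were 45.4 for liver, 53.6 for spleen and 54.0 for thymus, against 49.98, 63.4 and 59.8 for the nearer ones. A rank above 75 in all 3 organs was found for 12 of 253 desert regions (4.74%) and 73 of 530 nearer ones (13.8%). Across the 783 regions, distance to a coding gene had Spearman's rho of -0.0674 with the liver percentile, -0.170 with spleen, -0.0962 with thymus and -0.171 with width, so these were weak relations. Width and rank went together more closely (rho = 0.561, 0.607 and 0.535 for liver, spleen and thymus). Regions of 50 bp had median percentiles of 26.5, 41.0 and 36.6, and those of 400 bp or more 90.1, 89.7 and 87.6. Regions are not independent replicates, they share libraries, and width and score come from the same lists, so these values are descriptions.

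Of the 12 desert regions above the 75th percentile in all organs, the one at chr15:36389601-36390450 was 87643 bp from Ankrd46 and ranked at 98.1, 98.3 and 97.8. Others had Itm2b, Cxcr4, Tram1, Opa1, Fhl2, Slc22a12, Tent4a, Glis3, Cntn5 and Impg1 as the nearest coding gene; these genes were picked out after their values were seen. The region 175926 bp from Cxcr4, the chemokine receptor gene of haematopoietic cells, ranked at 94.2 for liver, 98.5 for spleen and 79.3 for thymus (chr1:128768001-128768450). The region 117982 bp from Fhl2, a LIM-domain cofactor gene, ranked at 95.7, 89.7 and 83.3.

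Among the 10 regions with the highest mean percentile, 8 lay within 50 kb of a coding gene. A region 1266 bp from the predicted coding gene Gm42048 ranked at 99.7 for liver, 96.5 for spleen and 99.8 for thymus (chr8:121832501-121832950). One 1697 bp from 1700029H14Rik, on the side of the growth-arrest gene Gas6, ranked at 99.4, 97.6 and 98.9 (chr8:13548801-13549250). A region 18690 bp from Yipf5, a Golgi membrane protein gene, ranked at 99.8, 98.8 and 97.3. Near Zscan20, a zinc finger gene, the values were 96.2, 98.6 and 99.4 at a distance of 2945 bp. The region 37681 bp from the transporter gene Abca8b ranked at 99.8, 99.6 and 93.9, and that 19861 bp from Arpin, an inhibitor of the Arp2/3 complex, at 95.5, 99.9 and 97.2. The widest regions of the set were also in this group. That near Mrps31, a mitochondrial ribosomal protein gene, was 1550 bp wide and ranked at 98.3, 95.4 and 99.8 (chr8:22433701-22435250; 4806 bp from the gene). That near Lrrc20 was 1450 bp wide and ranked at 98.6, 99.2 and 95.4 (chr10:61588201-61589650; 6134 bp). These 10 regions were chosen by their mean percentile, which requires all 3 organs to rank high.

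Across the whole set the organs often ranked a region differently. The highest and the lowest of a region's 3 percentiles differed by a median of 31.6 points. They differed by under 10 points in 71 of 783 regions (9.07%), near the 9.8% of all 1930 common regions. Above the 90th percentile in every organ were 22 regions (2.81%), above the 75th 85 (10.9%) and above the 50th 222 (28.4%). Over all 1930 common regions these shares were 3.42%, 11.1% and 27.7%. Below the 25th in every organ were 6 regions (0.766%). That share was 1.35% of all common regions, 4.10% of those at gene ends and 0.640% of those inside genes. The common regions inside genes gave 3.97%, 12.9% and 30.9% for the 3 upper limits, and those at gene ends 3.55%, 7.65% and 19.7%. The 6 low ones, named after their values were seen, were nearest to Il10rb, Anapc16, Sppl2a, Peli1, Laptm4b and Slc27a6. The region near Il10rb had the lowest mean percentile of the set, at 2.48 for liver, 22.6 for spleen and 8.36 for thymus. Across the set, liver and spleen percentiles had Spearman's rho of 0.345, liver and thymus 0.327, and spleen and thymus 0.522 (n = 783 regions). Among the 1930 common regions the same values were 0.258, 0.199 and 0.578.

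Intergenic regions ranked lower in liver than in the lymphoid organs. Their median percentile was 48.7 in liver (order-statistic 95% interval 44.9 to 51.9), 61.0 in spleen (58.3 to 63.9) and 57.5 in thymus (55.0 to 61.2). These intervals cover counting error only. Common regions inside genes had medians of 50.3, 62.0 and 62.8, again with liver lowest, and their thymus median was higher than the intergenic one. Common regions at gene ends had 63.9 for liver, 36.7 for spleen and 32.6 for thymus, so liver stood above both lymphoid organs there. These ranks depend on what else a list holds. Ranked only among the 1930 common regions, the medians of the intergenic regions were 46.7 for liver, 53.3 for spleen and 51.8 for thymus, which is a smaller spread in the same order. Presence in all 3 lists and these ranks come from the same lists, so no test was made.

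**Figure D2:**
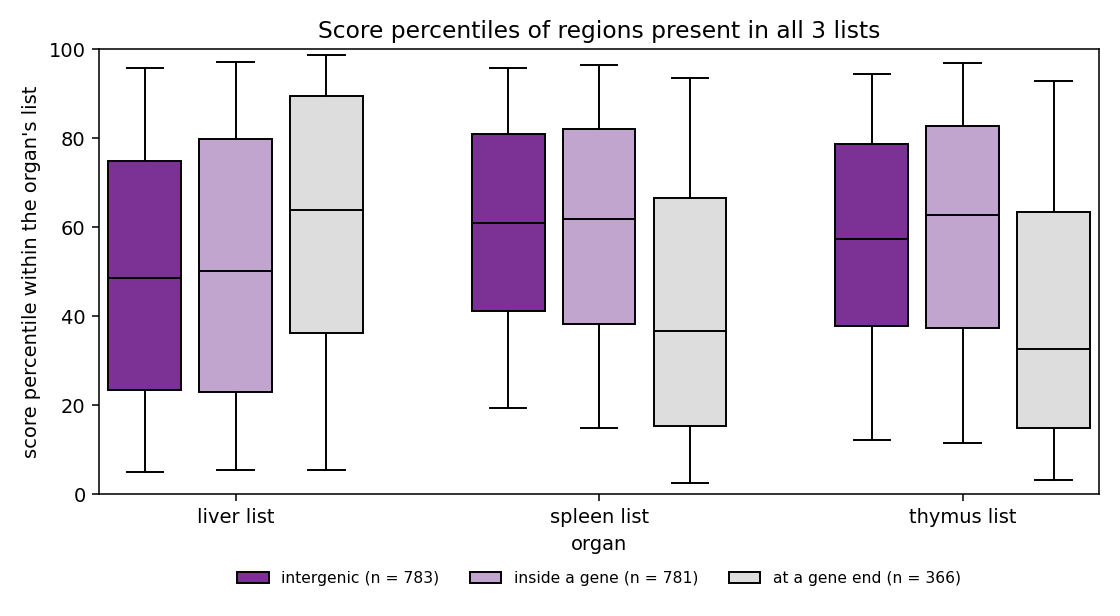
Score percentile within each organ's list for common regions that are intergenic, inside a gene or at a gene end. Boxes run from the 25th to the 75th percentile of the regions with a line at the median, and whiskers from the 5th to the 95th. Intergenic medians are 48.7 for liver, 61.0 for spleen and 57.5 for thymus, against 63.9, 36.7 and 32.6 at gene ends.

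A liver percentile more than 25 points above the mean of spleen and thymus was found for 97 regions (12.4%), and one more than 25 points below it for 224 (28.6%). Over all 1930 common regions the same limits were passed by 19.7% and 26.6%. The share with a lower liver rank was thus near that of all common regions, and the share with a higher liver rank was below it. Common regions inside genes gave 15.4% and 31.1%, close to the intergenic shares, whereas at gene ends liver was higher in 44.5% and lower in 12.8%. With ranks taken among the common regions alone, 14.0% of the intergenic regions were higher in liver and 24.9% lower, against 21.5% and 22.6% of all common regions. Desert regions were higher in liver in 42 of 253 cases (16.6%) and lower in 72 (28.5%), and the nearer ones in 55 of 530 (10.4%) and 152 (28.7%).

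The 5 regions with the largest difference in favour of liver were all within 25 kb of a coding gene. A region 10939 bp from Morn3 ranked at 81.1 for liver, against 2.30 for spleen and 2.00 for thymus (chr5:123057801-123058150). A region 4315 bp from Fos, which encodes a subunit of the immediate early factor AP-1, ranked at 93.8 for liver, 21.2 for spleen and 17.5 for thymus (chr12:85469501-85469650). The region 21701 bp from Eef1a1, the translation elongation factor gene, gave 96.5, 22.0 and 23.2. That 4250 bp from Itgb4, an integrin of epithelial attachment, gave 86.1, 3.00 and 23.5, and that 3574 bp from the ryanodine receptor gene Ryr2 gave 80.2, 27.8 and 0.416. For Ryr2 and Itgb4 the lymphoid organs thus differed by over 20 points.

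The 5 regions with the largest difference the other way included 3 in deserts. The most extreme lay 161144 bp from Lpin1, a phosphatidate phosphatase gene known to respond to p53, and ranked at 4.44 for liver, 98.2 for spleen and 95.4 for thymus (chr12:16374301-16374750). A region 112898 bp from Opa1, a mitochondrial fusion gene, ranked at 5.24, 84.8 and 93.3 (chr16:29775801-29776250). One 142159 bp from Jade1, a subunit gene of histone acetyltransferase complexes, ranked at 2.30, 73.5 and 82.1 (chr3:41413501-41413650), although a narrower member of 50 bp only 350 bp away gave 59.7, 41.1 and 64.8. The region 17704 bp from Gpr174, a lysophosphatidylserine receptor gene of lymphocytes, gave 3.20, 87.4 and 85.5 (chrX:107314401-107314550). The region 34604 bp from Akr1d1, a bile acid synthesis gene, gave 3.93, 70.7 and 98.9 (chr6:37609401-37609650). All 5 stood in the lowest 6% of the liver list.

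**Figure D3:**
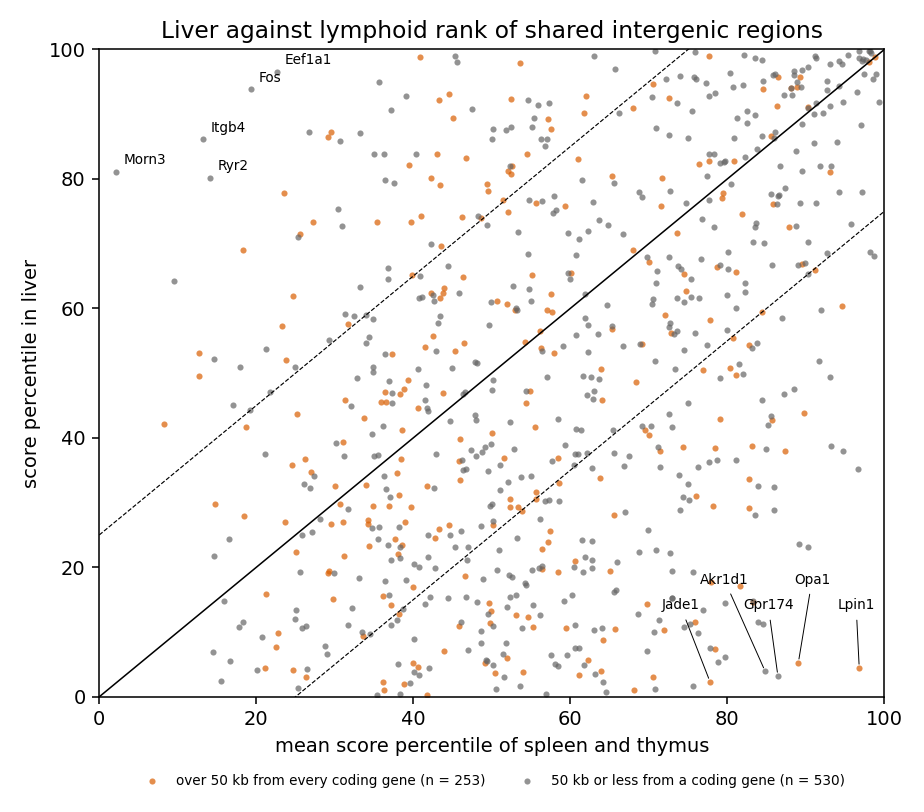
Score percentile in liver against the mean percentile of spleen and thymus for the 783 intergenic regions in all 3 lists, coloured by whether they lie over 50 kb from every coding gene (253) or not (530). The solid line marks equal rank and the dashed lines a difference of 25 points. Labels give the nearest coding gene of the 5 regions farthest to each side, and 97 regions lie above the upper line and 224 below the lower one.

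Spleen and thymus also differed at single regions. Spleen was more than 25 points above thymus in 145 regions (18.5%) and more than 25 points below it in 87 (11.1%), against 16.9% and 12.3% of all common regions. These shares are near the background. The largest differences in favour of spleen were at a region 43093 bp from the cytokine receptor kinase gene Jak1 (90.6 in spleen, 6.57 in thymus, 10.2 in liver; chr4:101308301-101308450), one 67418 bp from the homeobox gene Hlx (83.4 in spleen, 4.12 in thymus, 46.98 in liver) and one 2539 bp from Ms4a20 (81.0 in spleen, 4.05 in thymus, 62.0 in liver). In the other direction a region 30227 bp from Bet1, a vesicle fusion gene, ranked at 9.26 in spleen and 73.7 in thymus. Regions 1252 bp from Wnt8a and 211838 bp from the growth factor gene Pdgfd gave 21.7 and 14.9 in spleen, against 86.0 and 77.1 in thymus.

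The p53 target genes next to these regions were counted from 5 lists, which cover feedback on p53, arrest, apoptosis, DNA repair, and metabolism and other functions. Of 103 listed coding genes, 15 (14.6%) were the nearest coding gene of at least 1 region, against 3.24% of all 21887 coding genes, of which 710 were nearest to a region. Within 50 kb the counts were 11 listed genes (10.7%), against 2.28% of all. By list, 2 of 13 feedback genes, 4 of 15 arrest genes, 3 of 23 apoptosis genes, 1 of 15 repair genes and 5 of 37 metabolism and other genes were nearest to a region. Genes with long flanks are nearest to more sequence, the lists were chosen with p53 binding known, and no set test was made.

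Among feedback genes, the region outside Mdm2 was ranked very high in 2 organs. Mdm2 encodes the ubiquitin ligase that degrades p53. Its region at chr10:117717401-117717950 lay 6917 bp upstream, and it ranked at 99.8 for liver, 99.3 for spleen and 42.2 for thymus. A further common region, at a gene end, lay 6450 bp away. Trp53inp1, which encodes a stress protein that acts with p53, had a region 1316 bp outside the gene at 26.3, 34.8 and 41.5 (chr4:11155001-11155250), and the next common region, at a gene end, was only 550 bp from it. The feedback gene with the high rank thus had it in liver and spleen, and the other was below the 50th percentile in each organ.

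Regions next to 4 arrest genes were found. The region 2119 bp upstream of Plk2, a polo-like kinase gene, ranked at 99.1 for liver, 64.1 for spleen and 26.6 for thymus (chr13:110392801-110393050). A further common region, at a gene end, was 1950 bp from it. The region 6021 bp from Gadd45a, a gene of the G2/M checkpoint, gave 83.8, 44.3 and 28.2 (chr6:67029001-67029150). The region 6160 bp from Phlda3, which encodes a repressor of Akt, gave 64.6, 48.7 and 24.8 (chr1:135759801-135760050). Its next common region, at a gene end, was 5750 bp away. The region 20873 bp from Rprm, a mediator of G2 arrest, gave 55.6, 50.5 and 18.3. In these 4 the percentile was highest in liver and lowest in thymus, an order also found in 121 of the 783 regions (15.5%) and in 19.5% of all 1930 common regions. With 4 regions this is a description, and no test was made.

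Regions next to 3 apoptosis genes were found. Pmaip1, the BH3-only gene also called Noxa, had a region 4467 bp from the gene at 38.7 for liver, 99.6 for spleen and 86.8 for thymus. Zmat3, whose zinc finger protein binds RNA, had a region of 50 bp at a distance of 4460 bp (23.1, 42.7 and 33.9; chr3:32370101-32370150), with another common region, inside a gene, 5550 bp away. The region 61312 bp from the receptor gene Eda2r gave 40.7, 33.5 and 66.7. No region of these 3 ranked above the 50th percentile in all organs.

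Metabolic and other targets included a pair of regions that ranked high in each organ. Notch1, a receptor of cell fate choice and T-cell development, had a region 3153 bp upstream at 94.4 for liver, 89.0 for spleen and 99.4 for thymus (chr2:26506701-26507250). Ddit4, an inhibitor of mTORC1, had one 1200 bp downstream at 82.6, 79.99 and 79.3 (chr10:59948301-59948650). Another listed region, at a gene end, was 2750 bp from the Notch1 region (in 2 lists) and 2950 bp from the Ddit4 region (in 3 lists). Abca1, the cholesterol exporter gene, was 132187 bp from a region at 68.9, 92.0 and 44.0. Rap2b, a small GTPase gene, was the nearest coding gene of a pair of regions at 20072 and 164522 bp, neither above the 65th percentile in any organ, and Lpin1 is described above. The repair list was met only by Gadd45g, with regions at 101450 bp (26.8, 15.4 and 53.1) and 127400 bp (65.3, 67.8 and 81.1).

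**Figure D4:**
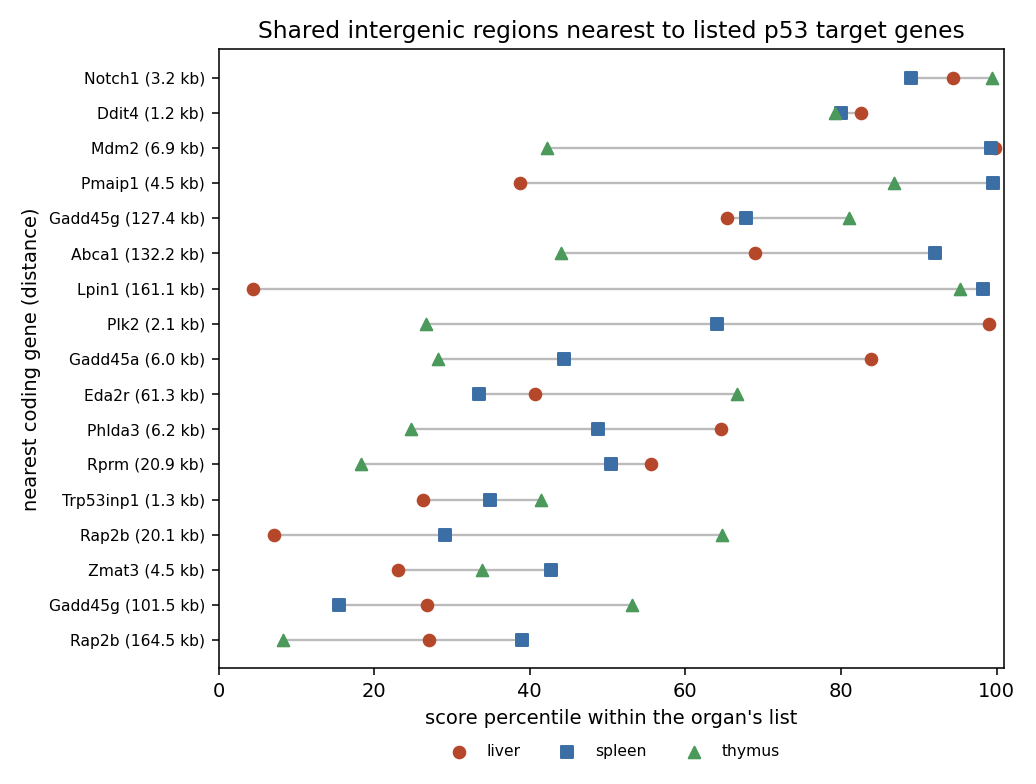
Score percentile in liver, spleen and thymus (points) for each of the 17 intergenic regions whose nearest coding gene is on a p53 list, ordered by mean percentile, with the distance to the gene in parentheses. Lines join the lowest and highest organ. The Notch1 and Ddit4 regions lie within 11 points across organs, whereas the Lpin1 region is at 4.44 in liver and above 95 in spleen and thymus.

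The rule keeps the regions away from promoters, and none overlapped a RefSeq promoter window of 250 bases before to 50 bases after a gene start (GRCm38.p6). Their own sequence was not used here, since no genome was used. The windows of the p53-list neighbours were searched instead, to show what lies at the promoter beside a region. Windows were found for 12 of the 15 neighbours and searched for the p53 consensus of 20 bases without a spacer, with at most 3 mismatches; the consensus is its own reverse complement, so both strands are covered. A match was found for 1 of the 12 genes, Gadd45a, against 6.29% of all 32851 windows, and a match is a description and not a site. Those windows belong to 27025 genes, so the share per window and the count per gene are unlike measures. The Gadd45a match begins 244 bases before the gene start, at chr6:67037632-67037651 on the minus strand. It is in capitals in the line below, which shows chr6:67037612-67037657.
Gadd45a promoter: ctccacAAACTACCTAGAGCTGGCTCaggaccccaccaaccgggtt

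MicroRNA genes were the nearest gene of 6 of the 783 regions (0.766%), 2 of them within 5 kb and the other 4 at 51281 to 101824 bp. The same share was not counted for other common regions. The mature RefSeq sequences of the 2 nearest miRNAs are shown because a region lies next to the gene, with the seed (bases 2 to 8) in capitals; the seeds differ. The region at chr2:65368701-65368950 was 4425 bp from Mir6337 and ranked at 45.4 for liver, 91.5 for spleen and 58.5 for thymus. The region at chr15:102675901-102676050 was 4109 bp from Mir688 and ranked at 17.2, 60.4 and 48.3. Both were highest in spleen, the organ with the highest median percentile of the whole set (61.0). Of the other 4, those near Mir6349 (14.2, 7.58 and 66.8) and Mir6420 (25.6, 35.4 and 79.4) were highest in thymus, while the pair near Mir7j gave 27.0, 31.0 and 31.2, and 62.3, 63.1 and 52.0.
mmu-miR-6337: uGAGGGCUgcuggguugcuaggu
mmu-miR-688: uCGCAGGCgacuacuuauuc

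Genes of organ identity were counted in the same way. Of the 46 listed hepatocyte and liver metabolism genes, 0 were the nearest coding gene of a region, against 3.24% of all coding genes. This count depends on the list, which did not hold Akr1d1, the bile acid synthesis gene with a region described above. The numbers are small, and no set test was made. Of the 46, 2 flanked a region on its far side, against 6.12% of all coding genes that flanked a region. Both are named after their values were seen. Alb, the serum albumin gene, was 77745 bp from the region at chr5:90382801-90383450, which is 14432 bp from Ankrd17 and ranked at 98.2 for liver, 93.0 for spleen and 95.4 for thymus. Cebpb, a liver transcription factor gene, flanked a region nearer to Ptpn1 (19.4, 38.7 and 19.9). T-cell genes were nearest in 5 of 30 cases (16.7%) and B-cell genes in 3 of 24 (12.5%), all of them over 50 kb away, against 3.24% of all coding genes at any distance. Within 50 kb the counts were 0 of 30 and 0 of 24, against 2.28% of all coding genes. Genes with long flanks are nearest to more sequence, and the part of flank length in these shares was not tested. The best ranked of these lymphocyte-gene regions were a region 169751 bp from Runx1, a regulator of blood cell development (78.1 for liver, 21.2 for spleen and 77.9 for thymus; chr16:92995701-92995950), and one 253416 bp from Foxo1, a forkhead factor of B cells (59.8, 74.3 and 39.8). A nearer Foxo1 region, at 97016 bp, gave 13.2, 52.8 and 47.1. Beside Ets1, a lymphocyte transcription factor gene, a region at 223355 bp ranked at 3.00 for liver, against 74.02 for spleen and 67.1 for thymus. Lef1 and Bcl11b, transcription factor genes of T-cell development, completed the T-cell list with regions at 52372 bp (9.36, 41.0 and 26.2) and 103028 bp (26.0, 19.7 and 66.9). Thy1, an antigen of T cells, gave 47.5, 35.4 and 42.3, and the B-cell regulators Ebf1 and Bcl6 gave 20.9 and 4.48 in liver, 71.7 and 38.9 in spleen, and 49.5 and 3.18 in thymus.

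Developmental regulators and neuronal adhesion and synaptic genes formed the last lists that were counted. Of 92 developmental regulators, 5 were the nearest coding gene of a region (5.43%), against 3.24% of all coding genes. Within 50 kb there were 3 of the 92 (3.26%), against 2.28% of all. Either flank of a region was taken by 8 of the 92, against 6.12% of all. These counts are small, and no set test was made. Pax2, a gene of kidney development, had a region at 15556 bp (62.1 for liver, 94.5 for spleen and 65.5 for thymus; chr19:44853701-44853950) and another at 49676 bp (66.0, 85.6 and 62.5). Nkx2-5, the cardiac homeobox gene, had one at 22639 bp (41.7, 86.8 and 59.0), and Tcf4, a basic helix-loop-helix gene, one at 384804 bp (50.7, 79.8 and 81.0). Pou3f2, a POU-domain gene of neural development, had one at 11820 bp that ranked low in liver (11.3) and high in spleen and thymus (91.3 and 77.9), and Sall3 one at 606604 bp (4.60, 18.5 and 62.8). Of 65 neuronal genes, 11 were nearest to a region (16.9%) and none within 50 kb. They included the contactin gene Cntn5 at 476050 bp (76.1, 80.4 and 91.3; chr9:11380601-11381050), the cadherin gene Cdh10 at 606369 bp (77.8, 70.1 and 88.8) and Negr1 at 255215 bp (76.2, 31.1 and 80.02). The percentage of neuronal genes exceeds the 3.24% of all coding genes. Such genes are known to border long stretches without coding genes, and the part of flank length in this share was not tested. Within 50 kb none of the 65 was nearest to a region, against 2.28% of all coding genes, and 21 of the 65 flanked a region, against 6.12%.

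Neighbouring regions of the set were few. The median distance from a region to the next listed region of any list was 128450 bp. Within 10 kb of another member were 56 regions (7.15%), in 28 pairs, and within 50 kb 105 (13.4%), in 51 groups of which 3 held 3 regions. Across the 54 neighbouring pairs within 50 kb the median difference in percentile was 32.6 points in liver, 22.7 in spleen and 22.9 in thymus. Pairs farther apart were not compared, and neighbours were not counted for the other common regions, so these values are descriptions. Of the 99 regions with any listed region within 10 kb, 54 had another member as the closest, 11 a common region at a gene end and 6 a common region inside a gene.

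The group beside Trim24 was the one made of desert regions. Trim24 encodes a ubiquitin ligase of p53. Its 3 regions lay upstream at 121536, 97286 and 53936 bp (chr6:37749101-37749450, chr6:37773301-37773750 and chr6:37816601-37817150). They ranked at 91.0, 72.6 and 54.4 in liver, at 73.2, 89.0 and 82.6 in spleen, and at 62.8, 86.8 and 83.1 in thymus, so the liver rank was lower the closer the region was to the gene. The same gap of 295889 bp also held the region near Akr1d1 described above. A second group ran through the locus of Ddit4, with the Ddit4 region between one 2729 bp from Dnajb12 (68.5 for liver, 93.1 for spleen and 92.2 for thymus; 650 bp wide) and one 13134 bp from Anapc16 (6.84, 19.5 and 9.63). The third lay beside the intramembrane protease gene Sppl2a, with liver percentiles of 5.48, 10.6 and 71.7 at distances of 4834, 8384 and 24934 bp.

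Pairs within a gap could also stand far apart. Beside Opa1, the region at 112898 bp ranked at 5.24 in liver and the one at 160048 bp at 94.0 (chr16:29823001-29823350), while both were between 84 and 94 in spleen and thymus. Beside Cxcr4, the region at 175926 bp ranked at 94.2 for liver, 98.5 for spleen and 79.3 for thymus, and that at 203576 bp at 23.5, 33.3 and 43.8.

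All chromosomes but Y carried intergenic regions of the set. Counts ran from 24 on X to 62 on chromosome 1. Per Mb of intergenic sequence the lowest value among chromosomes with a region was 0.212 on X and the highest 1.08 on chromosome 19, and the other autosomes lay between 0.395 on chromosome 7 and 0.839 on chromosome 9. The 86.8 Mb counted as intergenic on Y had 0 regions. The labels do not give the sex of the mice, so the values of X and Y are descriptions only.

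The limits of the rule cut through a continuous range. The 3 regions just inside the 1 kb limit were at 1006 bp from Esco2 (22.7 for liver, 84.3 for spleen and 57.5 for thymus), 1027 bp from Stxbp2 (9.94, 62.8 and 4.05) and 1072 bp from a pseudogene beside Cul2 (51.0, 16.8 and 18.9). The 3 just outside it were at 999, 970 and 967 bp from noncoding or predicted genes, with liver percentiles of 53.5, 17.9 and 72.8, spleen percentiles of 80.4, 40.9 and 51.4, and thymus percentiles of 59.8, 35.4 and 74.1. At the desert limit, the nearest regions beyond 50 kb were 50111 bp from Creb5, 50522 bp from Fzd7 and 50781 bp from Tbl1xr1, and those just within it 49897 bp from Qpct, 49676 bp from Pax2 and 49559 bp from Arsb.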

How the data were processed

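p53 ChIP-seq of liver, spleen and thymus was deposited by the authors as 3 lists of regions, 1 per organ, on build mm10 per the submitters' processing notes. Column 5 of each deposited list is the authors' score. The sources used here do not state its scale, the region caller, the aligner or any pooling of libraries. Each score was turned into its percentile rank in its own list, and ties took their mean rank. All region boundaries lie on multiples of 50 bp. Starts were made 1-based. Genes were those of RefSeq GRCm38.p6 (49943 of any kind, 21887 coding), as spans with both ends. Distances run from the midpoint of a region to the nearest gene end, and strand, where stated, from the RefSeq promoter table. That table held 77.2% of the 710 nearest coding genes, under the required 80%, so a count of upstream and downstream regions over the whole set was void. Of 363 gene list entries, 360 matched a coding gene. Shares of sequence were counted on a grid of 50 bp.

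Named regions were the 10 of highest mean percentile, the 8 farthest from coding genes, the 5 most liver-high and liver-low and the 3 most spleen-high and spleen-low, the 3 widest, all nearest to a p53-list gene, the 3 best genes of each other list, groups of 3 or more within 50 kb, and those at the limits. Regions and lists were chosen with earlier results of these data known. No region-level chance test was made, since list membership chose the regions. The code that assigns regions to genes was tested on simulated data with known positions. Python 3.11.15, numpy 2.4.6, pandas 2.3.3, scipy 1.17.1 and matplotlib 3.10.9 were used. The design planned a search for p53 motifs in the regions, which needs a genome and was not run. Some regions that this rule names are not reported here.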

Additional observations from a re-analysis of the deposited data

How the results depend on the processing

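No paired analysis was possible because each list stands for all libraries of an organ, and for the same reason no replicate could be left out. The count of 783 regions became 426 with a limit of 10 kb and 222 in the upper 50% of every list by score, and stayed between 565 and 983 under the other settings. The desert share of 32.3% became 20.7% at 100 kb, 52.5% at 20 kb, 12.1% with genes of any kind and 23.4% in the upper 50% by score. The median distance became 11601 bp with genes of any kind and 33449 bp with a limit of 5 kb. Ranking among common regions alone gave median percentiles of 53.3 in spleen and 51.8 in thymus. At over 50 points, 19 regions were higher and 66 lower in liver. Counting only genes within 50 kb gave 0 repair, 3 metabolic and other, 0 T-cell, 0 B-cell, 3 developmental and 0 neuronal genes. Counting either flanking gene gave 2 hepatocyte, 8 developmental and 21 neuronal genes. The p53 motif alternatives were not run. Depth is unknown, so a region in fewer than 3 lists may have missed a threshold, and the scores of lists cannot be compared directly.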
